A study of Arabidopsis thaliana with 4 samples.

Results

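Leaves of Arabidopsis thaliana deprived of nitrate were compared with leaves kept on a full nutrient solution, 1 array against 1 array, which are 2 of the 4 arrays of the series. The arrays were chosen by the written treatment of each sample. All plants were of ecotype Col-5, and rosette leaves were taken. Seedlings grew on agar medium with 1% sucrose under 16 h days until day 21, and then stood in hydroponics under constant light, with air at 24 °C and 80% humidity. Leaves were harvested 28 h after nutrient removal. The nitrate-free solution lacked calcium nitrate and held 4 mM calcium sulphate in addition, so its calcium and sulphate supply may have differed as well as its nitrate supply. Among the salts that the labels give for the full solution there is none of nitrate, so how much nitrate the reference plants received is uncertain. The full-nutrient array is called the reference array below. The other 2 arrays came from plants without phosphate or without potassium and are given beside the nitrate values. The phosphate array has conflicting letter codes in its labels, and its written treatment decided its place.

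Nitrate is the main nitrogen source of most land plants. It is taken up by roots, carried to leaves in the xylem, reduced to nitrite and then to ammonium, and built into amino acids in the chloroplast, and it also acts as a signal that sets the expression of genes for its own use. Plants that run short of nitrogen are known to recycle it from leaf proteins through autophagy and proteolysis, and to slow leaf growth while sugars accumulate.

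Each condition had 1 array, so values carry no replicate error, no difference was tested, and every count and ratio describes these arrays only. The deposited values are 1 linear signal per probe set. Signals under 25, a floor that 47.6% of the 8247 probe sets reached or passed on the reference array and 47.9% on the nitrate array, were set to 25, and ratios are log2 of nitrate-depleted over full-nutrient signal. Where 1 side lies under the floor the ratio is a bound, written as at least so many fold. A gene's ratio is the mean over its probe sets that reached 25 on either array. The probe annotation gave 3602 genes, of which 1622 were measured in this way, and 332 of these carry a symbol; the others are known by locus only. Where 2 or more probe sets of a gene lay above the floor on both arrays, their ratios spread over a median of 0.27 on the log2 scale, a 1.20-fold span, across 71 genes. That span shows how far probe sets on the same pair of arrays disagree and says nothing of the spread between plants.

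The tissue label was checked against marker genes. The 5 leaf mesophyll markers that the annotation named, among them RCA (Rubisco activase) and antenna and photosystem genes, were above the floor on both arrays on all 8 of their probe sets. Their summed signal was 27374.7 on the reference and 30936.6 on the nitrate array. The annotation named 2 of 12 listed root markers, 1 of 12 flower and pollen markers and 1 of 7 guard cell and vascular markers. All of these lay below the floor on both arrays, but they are too few to judge the share of other tissues or cell types. In whole leaves, fewer cells of a type and less RNA per cell cannot be told apart. Per the labels, 312 cells were masked and 183 were outliers on the reference array, against 0 and 32 on the nitrate array, and the part of these in the ratios was not tested.

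Most genes lay at similar levels on both arrays. The median ratio over the 1622 measured genes was 0.03. Of all probe sets, 35 were at least 2-fold higher without nitrate (0.424%) and 47 at least 2-fold lower (0.57%). Most members of the functional groups differed by less than 2-fold, and a limit of 1.5-fold was therefore used to read them. It was reached by 250 higher (3.03%) and 185 lower probe sets (2.24%), of which 33 and 20 were bounds. Among measured genes, 95 were at least 1.5-fold higher (5.86%) and 72 at least 1.5-fold lower (4.44%), and 9 (0.555%) and 20 (1.23%) passed 2-fold. These percentages are the background against which each functional list is read below. A list holds only genes placed in it by locus or name, so genes known by locus alone may be missing. In all, 19 of the 95 higher genes and 19 of the 72 lower genes were members of any list.

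The ratios were somewhat narrower for bright probe sets. The interquartile range of the log2 ratio was 0.46 for mean signals between 25 and 50 and 0.36 for the 680 probe sets above 400. Among these bright ones, 27 were at least 1.5-fold higher and 32 lower.

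**Figure D1:**
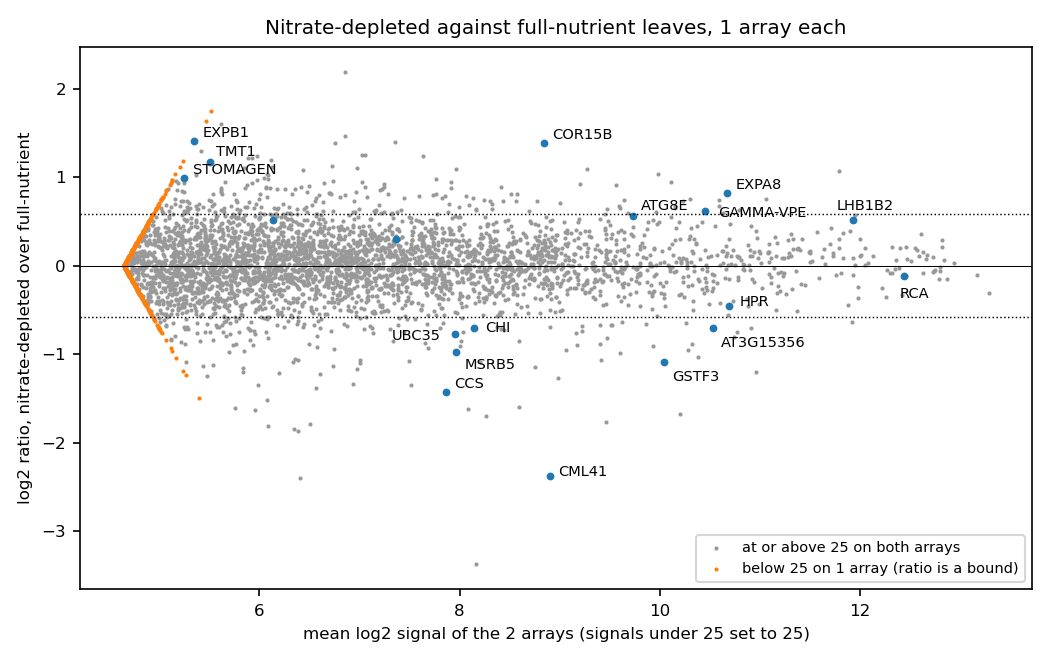
Each point is a probe set with a signal of at least 25 on 1 or both arrays, with the mean log2 signal of both arrays on the x axis and the log2 ratio of nitrate-depleted over reference on the y axis. Blue points are all probe sets of selected genes, each gene labelled once, and dotted lines mark 1.5-fold. Most bright points lie between the dotted lines, and CML41 (-2.37) and COR15B (1.38) are far from them.

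The genes nearest to the removed nutrient were covered thinly. The list for nitrate uptake, reduction and response had 4 measured genes, and none reached 1.5-fold. NPF6.2 (AT2G26690), of the NRT1/PTR transporter family that holds nitrate, peptide and hormone carriers, gave 429.4 with full nutrients and 473.6 without nitrate. NPF6.4 (AT3G21670), of the same family, went from 191.6 to 222.8. NPF4.3 (AT1G59740), another gene of the family, was near the floor, at 32.1 against 25. The fourth, AT2G47880, had signals of 170.7 and 217.5, a ratio of 0.35. The 2 brighter NPF genes were thus within 1.2-fold of the reference, which is the median span between probe sets of a gene, and both were higher still on the phosphate and potassium arrays (480.5 and 505.6 for NPF6.2). No gene of ammonium assimilation or of amino acid and peptide transport was named by the annotation.

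Amino acid metabolism showed no member past 1.5-fold either. The 10 measured genes had a median of -0.03 and a range of -0.46 to 0.23. The lowest was HPR, which encodes the hydroxypyruvate reductase of photorespiration, with signals of 1940.9 and 1410.9, 1.38-fold lower. HPR was also below the reference array without phosphate (1597.6) and without potassium (1151.3). CBL, the cystathionine beta-lyase of methionine synthesis, was highest on the nitrate array, at 217 against 185.2. MCCB, a subunit of the carboxylase that breaks down leucine, had 37.9 and 32.3. AT4G33150, which encodes the bifunctional first enzyme of lysine breakdown, had 33 and 37.9, far from its 154.9 on the potassium array.

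Nitrogen recycling through ureides and arginine was read from 3 genes. AAH, the allantoate amidohydrolase that frees ammonium from purine breakdown products, had 27.4 and 36.7 and was below the floor on both other depleted arrays. UGLYAH, the next enzyme of that route, went the other way, with 184.1 and 152.5. OTC, ornithine carbamoyltransferase of arginine synthesis, was nearly level at 901 and 959.8.

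Autophagy genes were among those somewhat higher without nitrate, by less than 1.5-fold. ATG8 proteins coat the autophagosome membrane, and 6 of their genes were measured. ATG8E signal went from 697.4 with full nutrients to 1031.1 without nitrate, 1.48-fold higher, against 501.2 without phosphate and 514.6 without potassium. ATG8C went from 88.4 to 126.9, 1.44-fold higher, with 72.3 and 92.8 on the other depleted arrays. ATG8F went from 820.1 to 1171.3, 1.43-fold higher, and its signals without phosphate (1246.9) and potassium (1061.8) were also above the reference. The nitrate array was thus the highest of the 4 for ATG8E and ATG8C and not for ATG8F. The 3 other members differed little, with 109 and 109.3 for ATG8D, 26.9 and 29.5 for ATG8B, and 154.9 and 142.3 for APG8A. All 10 senescence and autophagy genes together had a median of 0.07 against 0.03 for all measured genes, and none passed 1.5-fold. Some senescence genes of the list were near the floor on both arrays, as with SAG29, a sugar transporter gene of ageing leaves, at 33.8 and 25.7, and with the transcription factor gene WRKY53, at 30.6 and 21. YLS5, named for yellowing leaves, was brighter than these and was higher on both of its probe sets, with 672.5 and 879.2 on the brighter one.

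Proteases and the ubiquitin system held 3 genes at least 1.5-fold higher and 1 lower among 18, and their median was 0.00. GAMMA-VPE, a vacuolar processing enzyme and cysteine protease, had 1133.1 and 1740.7, 1.54-fold higher, and stood above the phosphate (702.1) and potassium (1047.8) arrays too. MAP1A, which removes the first methionine of new proteins, had 72.8 and 116.9, 1.61-fold higher. APM1, an aminopeptidase, had 129.9 and 195.6, 1.51-fold higher, and was as high or higher without phosphate (197.1) and potassium (237.7). UBC35, a ubiquitin-conjugating enzyme, was at 323.3 on the reference array and between 186.2 and 189.5 on all 3 depleted arrays, 1.71-fold lower without nitrate. Of these 4 genes only GAMMA-VPE stood apart on the nitrate array from both other depletions in the same direction by a wide margin, and APA1, another vacuolar protease, was level at 1118.3 and 1073.5.

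The list with the lowest median was that of chitinases, glucanases and other pathogenesis-related proteins, which plants secrete or store in the vacuole and which act on fungal walls. Its 7 measured genes had a median of -0.70, and 4 were at least 1.5-fold lower and 2 at least 1.5-fold higher, against 4.44% and 5.86% of all measured genes. These values hold for the members chosen. AT2G43610, which lies between genes of this list on the chromosome, is not a member and was at least 1.30-fold higher. CHI, annotated as a chitinase, had 361.9 with full nutrients and 222.1 without nitrate, 1.63-fold lower. It was brighter without phosphate (620.8) and without potassium (1122.5). AT2G43620, a locus without a symbol that the list places beside CHI, had 195.1 on the reference array and 77, 158.4 and 223.6 without nitrate, phosphate and potassium. The nitrate array was the lowest of the 4 for both. AT2G43590, the lowest gene of all, was read by 2 probe sets that were each low, with signals of 926.4 and 89 on the brighter and 154.1 and 42.8 on the dimmer one. They gave ratios of -3.38 and -1.85, so its direction was shared and its size was not. The brighter probe set has the ending that Affymetrix uses where several transcripts share the probes, so similar genes may add to it. The same holds for other probe sets with this ending, among them those of AT4G16260, OSM34, LCR69, CML41, ATG8E and GAMMA-VPE. For AT4G16260, 291.8 on the reference and 114.4 on the nitrate array were both far below the 1204.2 of the potassium array.

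None of the other members of this list was 1.5-fold lower. OSM34, an osmotin-like gene, had 44 and 84.4, 1.92-fold higher, and the nitrate signal was still below those without phosphate (139.9) and potassium (1018). LCR69, a defensin-like gene, had 175.8 and 303.8, 1.73-fold higher, again below the phosphate (316.4) and potassium (401.3) arrays. LCR68, a relative of it, had 660.3 and 578.5, 1.14-fold lower. The nitrate array was therefore the lowest of the 4 for 4 of the 7 genes and the highest for none, where it was lowest for 20.6% and highest for 31.0% of all measured genes.

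Lectins and related secreted proteins pointed in both directions. AT3G15356, which the list places with the lectins, had 1882.4 and 1156.4, 1.63-fold lower, and lay lower still on both other depleted arrays, at 618.5 and 630.7. BGLU28, a beta-glucosidase, was at 40.8 on the reference and below the floor on the nitrate array, at least 1.63-fold lower, while it was at 77.4 without phosphate and 633.8 without potassium. JAL23, a jacalin-like lectin, was below the floor with full nutrients and at 37.5 without nitrate, at least 1.50-fold higher. The list had 5 measured genes, 1 past 1.5-fold higher and 2 past it lower.

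**Figure D2:**
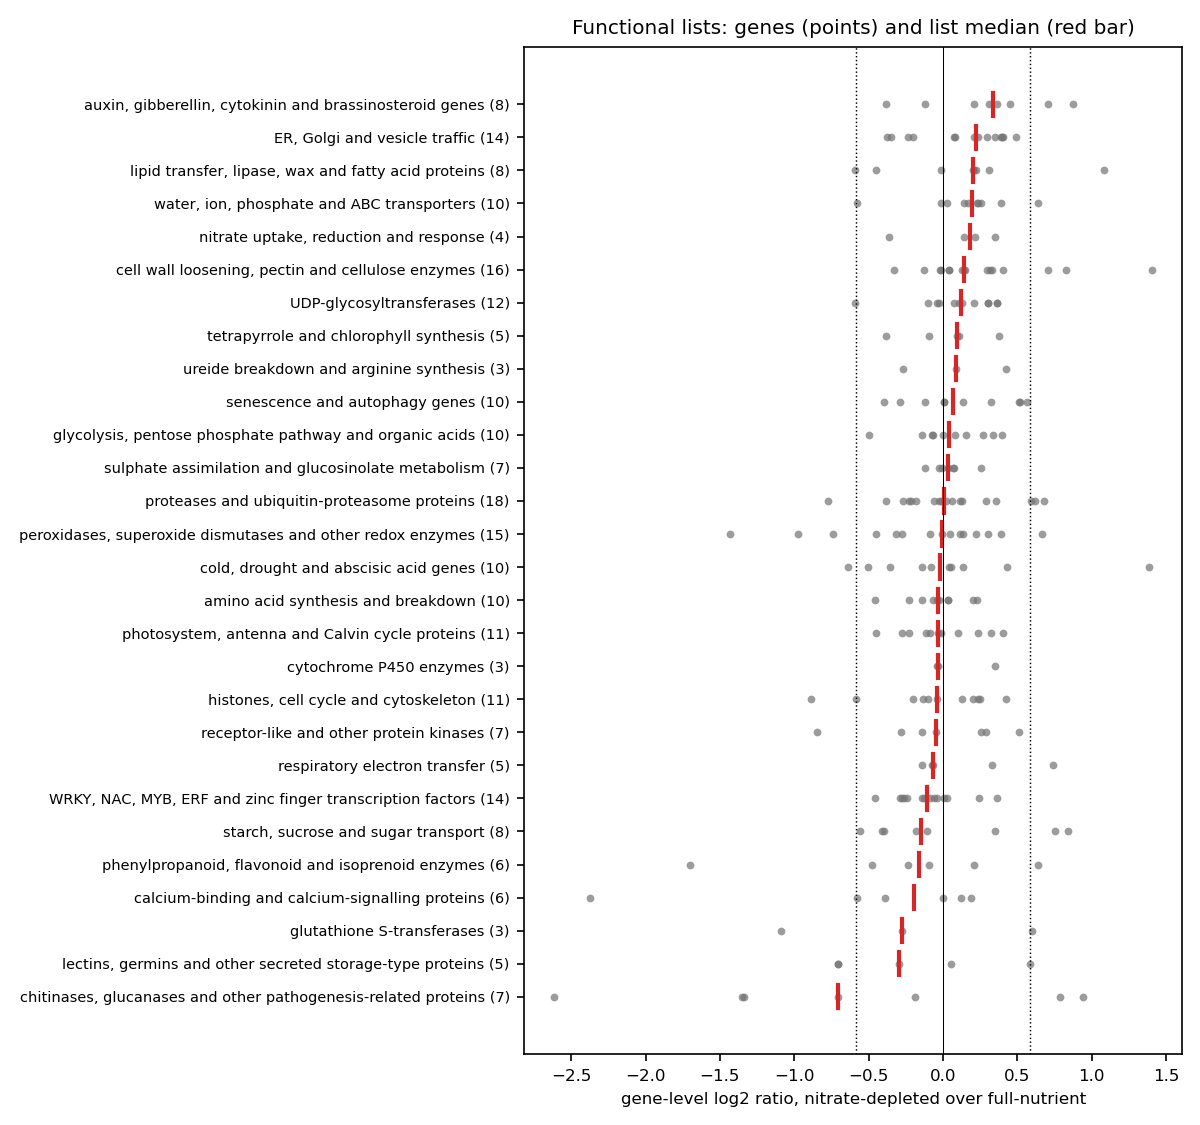
Each row is a functional list with its number of measured genes in brackets, each grey point is the gene-level log2 ratio of nitrate-depleted over reference, red bars are list medians, and dotted lines mark 1.5-fold. List medians lie between -0.70 for the chitinase list and 0.34 for the hormone list, and most points lie between the dotted lines.

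The 15 measured genes of the redox list were centred on the reference, with a median of -0.00, 3 at least 1.5-fold lower and 1 higher. Peroxidase genes known by locus only may be missing from this list, so its median and counts do not cover that family. CCS, the chaperone that loads copper into superoxide dismutase, had 381.8 on the reference and 141.6 on the nitrate array, 2.70-fold lower. Its signals without phosphate (179.8) and potassium (166.1) were close to the nitrate signal, so the reference array was the one apart. MSRB5, a methionine sulfoxide reductase that repairs oxidised proteins, behaved differently. Its signal was 178 without nitrate and 350.3, 344.5 and 387.6 on the reference, phosphate and potassium arrays, so the nitrate array alone was low. PRX71 (AT5G64120), a secreted peroxidase, had 136.1 and 81.5, 1.67-fold lower, while the phosphate and potassium arrays had 367.9 and 387.5. GR, a glutathione reductase of organelles, was near the floor, at 27.6 and 43.8, 1.59-fold higher. The bright plastid and wall genes of this list were above the reference by less than 1.5-fold, with 3326.5 and 4366 for the peroxidase gene PRXR1 and 1062.2 and 1312.3 for TRXF2, a thioredoxin that activates Calvin cycle enzymes.

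Glutathione S-transferases detoxify reactive compounds by joining them to glutathione, and 3 were measured. GSTF3 had 1539.8 with full nutrients and 723.4 without nitrate, 2.13-fold lower, and 1191.2 and 1337.3 on the others. Its probe set has an ending that Affymetrix gives to probe sets shared within a gene family, so close relatives may add to its signal. GSTU16 had 64.1 and 97.3, 1.52-fold higher and the highest of the 4 arrays, and GSTU18 had 349.2 and 289.1. One gene of the family was thus past the limit in each direction.

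Calcium-related genes had a median of -0.20 over 6 genes, and 1 was past 1.5-fold. CML41, a calmodulin-like protein, had 1089.8 on the reference array and 210.3, 300.5 and 315.7 on the nitrate, phosphate and potassium arrays. It was 5.18-fold lower without nitrate and low on every depleted array. GLR2.7, a glutamate receptor-like channel, was also lower on every depleted array, with 65.9 on the reference and 44.2, 39.8 and 42.1 on the depleted arrays. CRT1b, a calreticulin that binds calcium in the endoplasmic reticulum, had 191.3 and 146 and was above the reference on the other arrays (224.3 and 236.8). CML42 was close to level at 77 and 83.6. Calcium supply may have differed between the solutions, and its part in these values was not tested.

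Sulphate supply may have differed too, and the list of sulphate assimilation and glucosinolate genes lay close to the reference. Its 7 measured genes had a median of 0.03, a range of -0.12 to 0.26 and no member past 1.5-fold. APS3 and APS4 encode ATP sulfurylases, the entry step of the pathway, and had 448.8 and 469.6 for APS3 and 76.2 and 91.2 for APS4. SIR, the sulfite reductase, had 435.7 and 400.7. AOP3, of glucosinolate side-chain formation, had 1014.1 and 1037.7. These ratios are all inside the spread seen between probe sets of a gene.

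Photosynthesis genes were bright and nearly level. The 11 measured genes of the photosystems, antenna and Calvin cycle had a median of -0.03 and none passed 1.5-fold. LHB1B2, an antenna protein of photosystem II, was the highest, at 3265.2 and 4667.7 on its brighter probe set, 1.43-fold, and 148.3 and 182.4 on the other. PSAE-1, a photosystem I subunit, was 1.23- to 1.29-fold higher on all 3 of its probe sets, with 6514.9 and 7985.2 on the brightest. Both genes were brighter on the nitrate array than on any other. The Calvin cycle enzymes were on the lower side, with 1558.5 and 1286.1 for PRK (phosphoribulokinase), 525.1 and 449.1 for SBPASE (sedoheptulose-bisphosphatase) and 5766 and 5340.3 for RCA. LHCB4.3, a minor antenna protein, had 172.5 and 126.1, 1.37-fold lower, the lowest of the list.

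Chlorophyll and tetrapyrrole synthesis had a median of 0.10 over 5 genes, with none past 1.5-fold. GSA1, an early enzyme of the pathway, had 155.5 and 119. HEME2, a uroporphyrinogen decarboxylase in the middle of it, had 201.8 and 262.6. PORB, which makes chlorophyllide in the light, had 632.2 and 676, and LIL3:1, a protein that holds late enzymes at the membrane, had 464.4 and 501.7. For HEME2, PORB and LIL3:1 the nitrate array was the highest of the 4, and the phosphate and potassium arrays lay below the reference. GSA1 was below the reference on all 3 depleted arrays.

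Sugar and starch genes had a median of -0.14 over 8 genes, with 2 at least 1.5-fold higher. TMT1, which loads sugars into the vacuole, was read by 2 probe sets, with 30.2 and 67.9 on one and 58.8 and 84.3 on the other, and its mean ratio was 0.84. TMT2, its relative, had 113 and 144, a ratio of 0.35. APL3, a subunit of the enzyme that makes the starch precursor ADP-glucose, was below the floor with full nutrients and at 42.1 without nitrate, at least 1.68-fold higher. All 3 genes were above the reference on each depleted array. F2KP, which sets the level of a signal metabolite between sugar breakdown and synthesis, had 264.4 on the reference array and 179.9, 178.9 and 171 on the depleted arrays. SWEET17, a vacuolar fructose transporter, had 47.9 and 36.

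Central carbon metabolism and respiration were close to the reference. The 10 genes of glycolysis, the pentose phosphate pathway and organic acids had a median of 0.04 with no member past 1.5-fold. MDH, the plastid malate dehydrogenase, was at 132.6 and 174.9, and ALDH10A9, an aldehyde dehydrogenase, at 140.1 and 99.3, 1.41-fold lower and the lowest of the 4 arrays. Among 5 genes of respiratory electron transfer, CYTC-2, a cytochrome c gene, had 35.5 and 59.2, 1.67-fold higher, and was higher still on the phosphate (84.4) and potassium (125.3) arrays. Its brighter relative CYTC-1 had 1157 and 1105.

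Cell wall genes held 3 members at least 1.5-fold higher and none lower among 16, against 5.86% and 4.44% of all measured genes. Of the 16 ratios 12 were above 0, against 872 of 1622, and the median was 0.14. Expansins loosen the wall during growth. EXPA8 was the bright one, with 1225.2 on the reference and 2172 on the nitrate array, 1.77-fold higher, against 1016.7 without phosphate and 509.9 without potassium. EXPB1 was below the floor with full nutrients and at 66.3 without nitrate, at least 2.65-fold higher, with its second probe set below the floor on all arrays. It was at 26.8 without phosphate and below the floor without potassium, so both expansins were highest on the nitrate array. EXPA4 had 124.2 and 98.9, below the reference, so the expansins did not share a direction. EXO, a gene of brassinosteroid-linked growth, was below the floor with full nutrients and at 40.8 without nitrate, at least 1.63-fold higher, far under its 197.8 and 205.6 on the phosphate and potassium arrays. With a floor of 50 the ratio of EXPB1 shrank to 0.41, and EXO lay under that floor on both arrays. Of the 3 members past 1.5-fold, only EXPA8 then stayed past it. COB, which orients cellulose deposition, had 349.7 and 430.1, the highest of the 4.

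Growth hormone genes had the highest list median, 0.34 over 8 genes, of which EXO and IAA18 passed 1.5-fold. This median depended on the setting, since it was 0 with a floor of 50 and -0.16 against the mean of the other 3 arrays. IAA18, a repressor of auxin responses, had 36.3 and 66.7, 1.84-fold higher, and was higher still without phosphate (73.3) and potassium (108.8). ARL, which promotes organ growth, had 55.3 and 68.6, and IAGLU, which joins glucose to auxin, had 105.2 and 135.4. WES1, an enzyme that joins auxin to amino acids, had 43.1 and 49.9, and its relative GH3.3 had 39.7 and 36.6. For IAA18, ARL, IAGLU and WES1 the potassium array was the brightest of the 4.

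STOMAGEN, a secreted peptide that promotes the formation of stomata, was at 27 on the reference and 53.7 on the nitrate array, 1.99-fold higher. It was at 66.1 without phosphate and 31.1 without potassium. The full-nutrient signal was just above the floor, and with a floor of 50 the ratio shrank to 0.10.

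**Figure D3:**
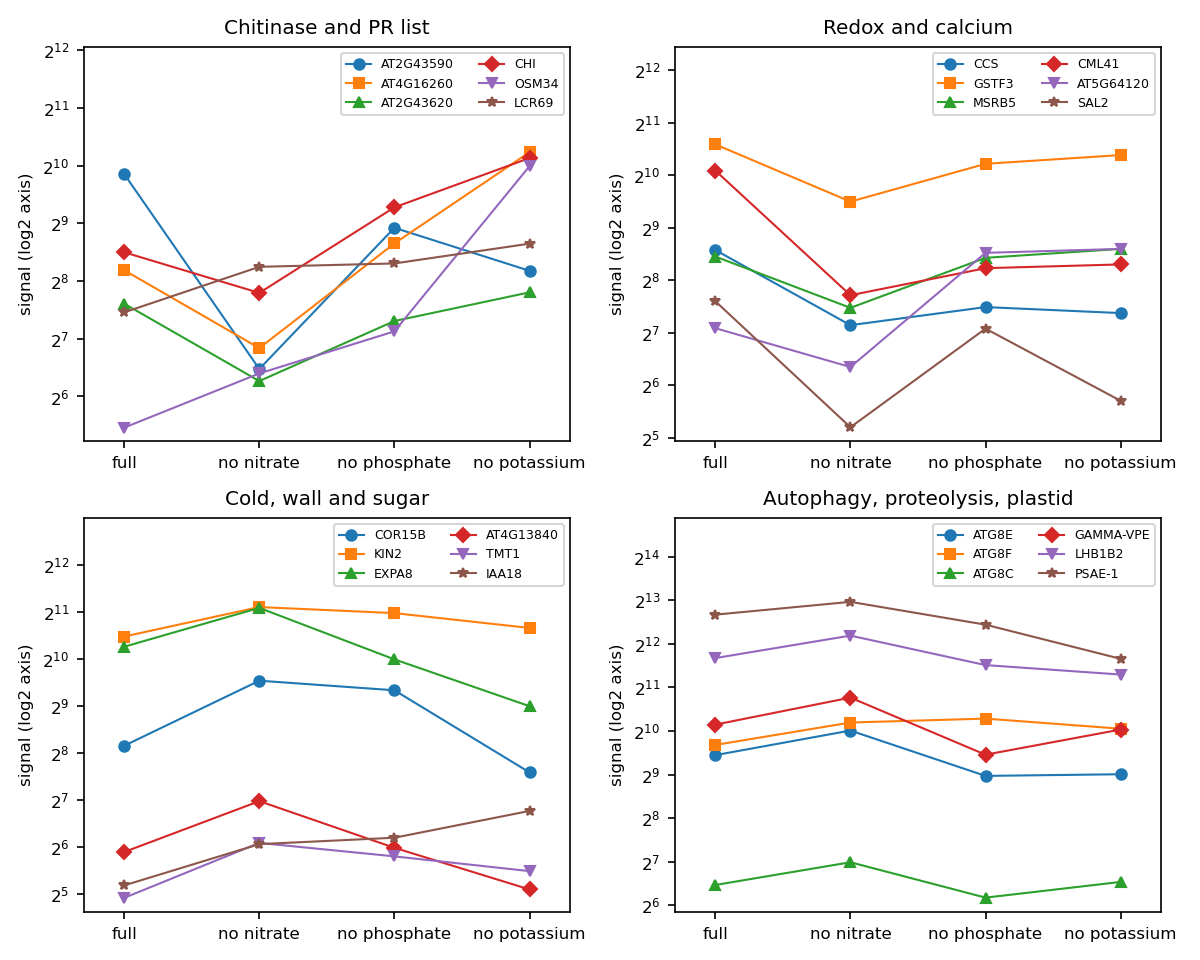
Signals of 24 probe sets, 1 per gene, on the reference, nitrate, phosphate and potassium arrays, on a log2 axis with signals under 25 drawn at 25. Lines only join the values of a gene. Of the chitinase list, AT2G43590, AT4G16260, AT2G43620 and CHI have their lowest point on the nitrate array, as does MSRB5, while CCS and CML41 are low on all depleted arrays, and EXPA8, ATG8E and GAMMA-VPE have their highest point on the nitrate array.

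Cold and drought genes lay on both sides of the reference. The 10 genes had a median of -0.02, 5 above and 5 below 0, with 1 at least 1.5-fold higher and 1 lower. COR15B, a chloroplast protein that protects membranes during freezing, was 2.61-fold higher, with 284.5 and 742.3, and the phosphate array (644.6) was close to the nitrate array while the potassium array (192.1) lay below the reference. KIN2, another cold-induced gene, was 1.54-fold higher on 1 probe set (1423.9 and 2198.7) and 1.18-fold on the other. SRC2, a membrane protein named for its response to cold, had 984.2 and 633.5, 1.55-fold lower and the lowest of the 4 arrays. DI21, named for drought induction, had 108.7 and 76.6, and HIRD11 (AT1G54410), a dehydrin, was bright and close to level at 3231.6 and 2927.

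Lipid genes had a median of 0.21 over 8 genes. CER26 (AT4G13840), of the family that extends the long chains of surface wax, had 59.4 and 125.7, 2.12-fold higher, and was at 63.2 and 34.2 on the phosphate and potassium arrays. AAE15, a plastid acyl-activating enzyme, had 68.3 and 45.3, 1.51-fold lower. CCT1, which makes the activated choline for membrane lipids, was lower on both of its probe sets, with 347.9 and 272.3 on the brighter one, and was brighter without phosphate (528.5). AIM1, an enzyme of peroxisomal fatty acid breakdown, was higher on both of its probe sets, with 1288.4 and 1757.2 on the brighter one. CER26, AAE15 and CCT1 were each at the edge of the 4 arrays in the nitrate sample.

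Specialised metabolism showed single genes rather than groups. AT1G75280, a locus without a symbol in the phenylpropanoid and flavonoid list, had 555 on the reference and 170.9 on the nitrate array, and 538.4 and 969.7 without phosphate and potassium. It was 3.25-fold lower than the reference, and the nitrate array alone was low. FLDH, a farnesol dehydrogenase, had 57.9 and 90.4, 1.56-fold higher. Z-ISO, a carotenoid isomerase, had 91.7 and 66. Among 12 UDP-glycosyltransferases, which attach sugars to small molecules, UGT87A2 was the one past 1.5-fold, with 157.5 and 104.5, and it was brighter without phosphate (196.2) and potassium (369). The 3 cytochrome P450 genes lay between -0.04 and 0.35.

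Transporters of ions and protons were slightly above the reference, with a median of 0.20 and 8 of 10 genes above 0. ZIP6, of a zinc and iron transporter family, had 43.8 and 68.1, 1.55-fold higher, and MTP11, a manganese transporter, had 52.4 and 68.7, and both were highest on the nitrate array. Subunits of the vacuolar proton pump were near level, with 196.8 and 231.3 for VHA-A2, 525.2 and 521.6 for VHA-A3 and 2383.1 and 2634 for AVA-P2. Genes of the endoplasmic reticulum, Golgi and vesicle traffic had a median of 0.22 over 14 genes, 10 of them above 0 and none past 1.5-fold. PDIL5-1, which forms disulphide bonds in secreted proteins, had 44.8 and 63.1, the highest ratio of the list at 0.49. RAB6A, a small GTPase of the Golgi, had 444.9 and 566.5, and VPS22, of endosomal sorting, had 112.6 and 147.8, whereas VPS2.1, of a later sorting complex, had 125 and 96.2. Across all measured genes 872 of 1622 were above 0.

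None of the 14 measured transcription factor genes passed 1.5-fold, and 10 were below 0, with a median of -0.11. WRKY22, which acts in immune and dark responses, had 27.8 and 35.7. WRKY20 had 34.2 and 28.2. STZ, a zinc finger repressor of stress responses, had 90.5 and 95.6 on 1 probe set and 171.1 and 149.2 on the other, far from the 365.4 and 448.2 of the latter on the phosphate and potassium arrays. EIN3, the central transcription factor of ethylene, was bright and level at 1300.9 and 1295.7. Among 7 protein kinases, ATSIK had 57.1 and 31.7, 1.80-fold lower, and was as low without phosphate (27.9), and APK1A had 43.3 and 61.6, 1.42-fold higher. BIK1, a kinase of immune receptors, had 36.3 and 43.3. GI, a clock and flowering gene, was higher on both of its measured probe sets, with 211.3 and 271 on the brighter one.

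The list of chromatin, cell cycle and cytoskeleton genes had a median of -0.04 over 11 genes, with 2 at least 1.5-fold lower. Histone genes known by locus only may be missing from it, so these counts do not cover all histone genes. PRL, a helicase subunit that licenses DNA replication, had 74 and 40.1, 1.85-fold lower, and was also low without phosphate (30.4). HIS1-3, a linker histone induced by drought, had 206.7 on the reference and 137.7, 156.9 and 144.9 on the depleted arrays. Core histone genes lay on both sides of the reference. HTB2 (histone H2B) had 89.5 and 120.3, and the histone H3 gene AT5G65360 had 425 and 506.3, while AT1G09200, also histone H3, had 432.9 and 394.1, and HIS4 had 227.1 and 221.4. Tubulin genes were near level, with 397.9 and 434.2 for TUB6 and 162.2 and 141.3 for TUA1.

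SAL2, related to phosphatases of inositol phosphates and of a sulphur nucleotide, had 194.3 on the reference array and 36.8, 135.3 and 52.2 without nitrate, phosphate and potassium. Most of the other genes far from the reference carry no symbol and are given by locus. Below the 10 most extreme genes on the lower side, AT4G19200 was the brightest of the loci without a symbol, with 1910.5 on the reference and 931.1 on the nitrate array, followed by AT1G65500, with 1096.5 and 553, and AT4G01870, with 428 and 201.9. The remaining loci of this stretch without a symbol had ratios between -1.34 for AT2G43620, described above, and -0.91 for AT2G44290, and 4 of them were bounds. AT4G20820 had 188.8 and 83.9 on 1 probe set, while its 3 other probe sets were below the floor on both arrays. On the higher side, such loci are ranked by their signal on the nitrate array. AT2G30620 was the brightest, with 428.3 and 811.7, followed by AT1G09750, with 177.9 and 328.6, and AT4G32460, with 109.7 and 209.1. AT2G36470 had 42.6 and 78.5, and AT2G32070 had 76.4 and 148.3.

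In 4 genes, 2 probe sets lay past 1.5-fold in the same direction. Besides AT2G43590, these were AT2G37480, with 97.8 and 181.9 on one and 293.7 and 489.8 on the other, AT2G15830, with 268.2 and 444.7 and with 93.7 and 180.3, and AT1G27210, whose dimmer probe set was below the floor on the reference array.

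Since every ratio has the reference array as its base, the values on all 4 arrays show which array stands apart. Of the 95 genes at least 1.5-fold higher, the nitrate array was the highest of the 4 in 60 and the reference array the lowest in 61, with both true in 28. Of the 72 lower genes, the nitrate array was the lowest in 56 and the reference array the highest in 43, with both true in 29. Over all measured genes the nitrate array was the highest in 31.0% and the lowest in 20.6%. The 95 and 72 genes were picked by the ratio of these same arrays, which favours an extreme place for either. Their counts are therefore a description only. A gene in which only the reference array is extreme has ratios of the same sign in all 3 depletions, because they share that array. CML41, CCS and F2KP are high on the reference array alone, and MSRB5, GSTF3 and AT1G75280 are low on the nitrate array alone.

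Some probe sets were at least 1.5-fold from the reference in opposite directions in nitrate and in another depletion. They were counted only where all 3 arrays compared were at or above 25, which leaves out BGLU28. Against phosphate, 6 were higher and 7 lower without nitrate, and against potassium, 8 were higher and 8 lower. EXPA8, CER26 and GAMMA-VPE were among the higher ones, and CHI, AT4G16260, PRX71 and UGT87A2 among the lower ones. With 1 array per condition these differences were not tested.

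**Figure D4:**
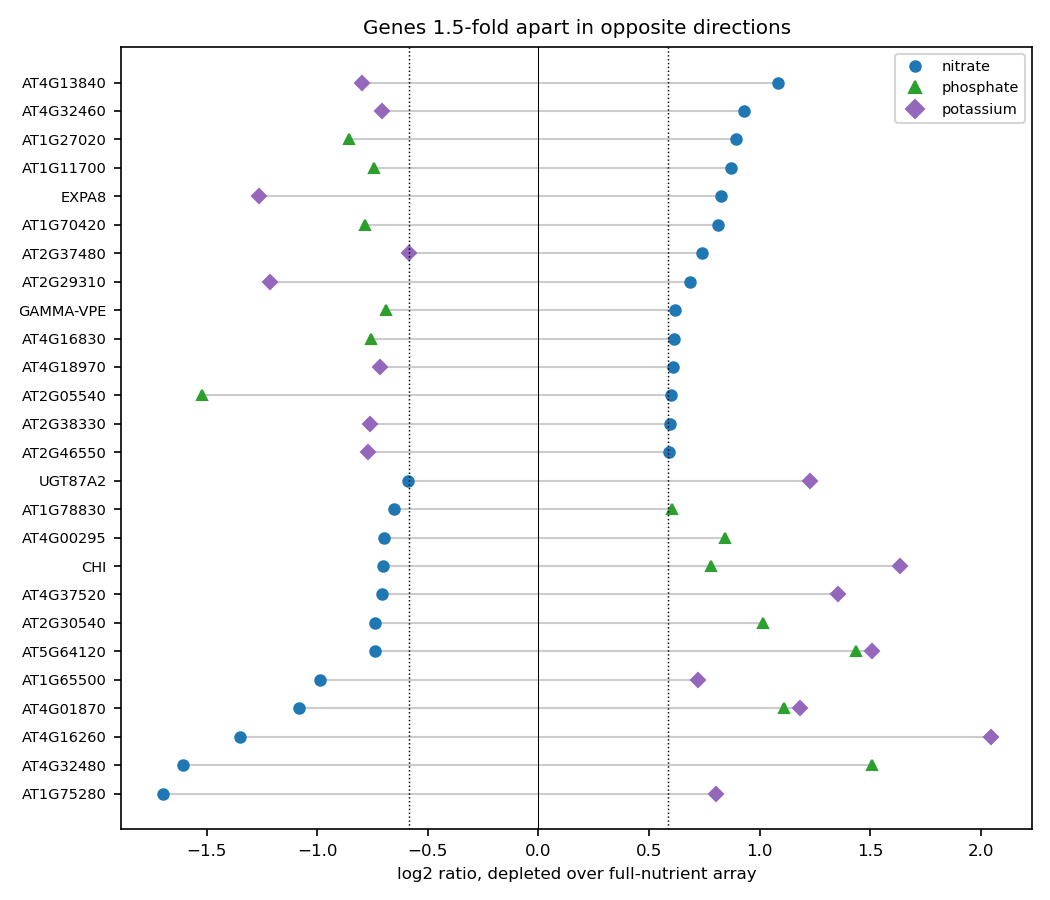
Log2 ratios to the reference array for the nitrate array (blue circles) and for the phosphate (green triangles) or potassium array (purple diamonds) where the latter is at least 1.5-fold away in the opposite direction. AT4G13840 is CER26 and AT5G64120 is PRX71. AT4G16260 spans from -1.35 without nitrate to 2.05 without potassium.

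Genes past 1.5-fold were also read for their position, by gene order along the chromosome. Runs of at least 3 such genes in the same direction, with neighbours at most 20 positions apart, were found at 4 places. On chromosome 2, CHI, AT2G43590 and AT2G43620 lie within 6 consecutive genes and were all lower. AT2G43610 lies between them and had 22.1 and 32.5, so the run is not uniform. On chromosome 1, SRC2, AT1G09060 and AT1G09130 lie within 6 genes and were lower, with ratios of -0.64, -0.79 and -0.68, and no other gene between them was measured. Also on chromosome 1, 5 of 10 measured genes in a stretch of 32 genes from AT1G26920 to AT1G27210 were at least 1.5-fold higher. Their ratios were 0.82 for AT1G26920, 0.89 for AT1G27020, 0.81 for AT1G27030, 1.03 for AT1G27090 and 0.83 for AT1G27210. A looser run on chromosome 2, from AT2G46320 to AT2G46550, had 3 of 6 measured genes at least 1.5-fold higher, by 0.59 to 0.63. With a floor of 50, a setting added after the data were seen, the 3 genes of the run from CHI to AT2G43620 stayed past 1.5-fold. The run from AT1G09060 then kept 2 of its 3 genes, the one from AT1G26920 kept 2 of 5 and the one from AT2G46320 kept 2 of 3, so these no longer met the definition of a run. The runs were found by looking for such genes, so they are a description.

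**Figure D5:**
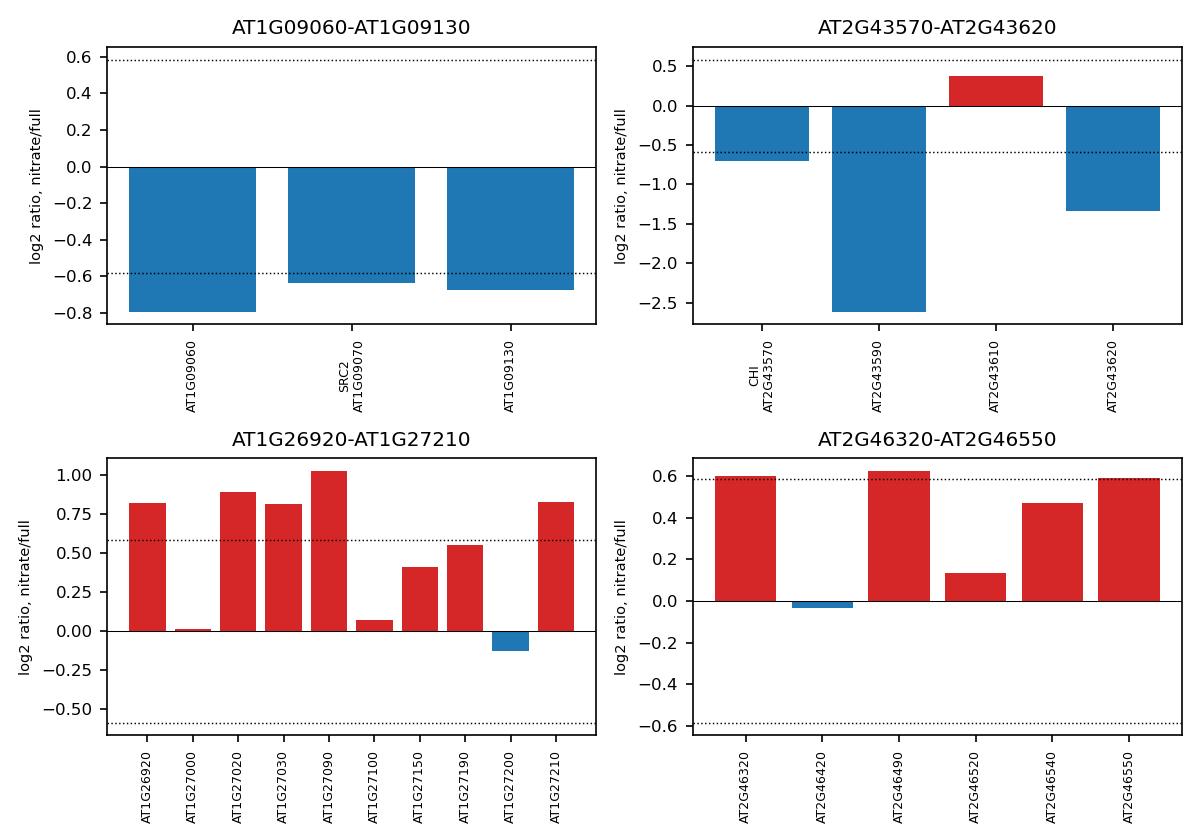
Gene-level log2 ratios of nitrate-depleted over reference for all measured genes in 4 stretches of the genome, in gene order, with red bars above and blue bars below 0 and dotted lines at 1.5-fold. In the stretch from AT2G43570 (CHI) to AT2G43620, 3 of 4 measured genes are below the lower line and AT2G43610 is above 0.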

How the data were processed

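The deposited table holds linear intensity values, a signal for each probe set on each array, as the authors left them. How signals were computed and scaled is not given in the sources used here, nor is any software version. After trimming 2% of the probe sets at each end, mean intensity was 100.146 for full nutrients and 100.174 for nitrate depletion, so no further scaling was applied. Of 8297 probe sets, 50 Affymetrix controls were left out. The platform annotation named 1 gene for 3794 of the other 8247, several for 70 and none for 4383. Entrez numbers of 3784 were found in the TAIR10.1 gene table. Probe sets with several genes were left unnamed, and neither coordinates nor sequences are given.

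Signals under 25 were set to 25 and converted to log2. With 1 array per group no test was possible, and the number of arrays limits the precision. Functional lists were built by locus and by name: 36 were set up, false name matches were removed and members added in 16, and 4 more were added after the annotation was read. The members and lists were chosen with earlier results of these data known. A list is described from 3 measured genes up, which held for 29. Named were all measured genes of the nitrogen lists, the 15 genes of each direction after the 10 most extreme, up to 4 members of each list above the floor on both arrays, genes with 2 concordant probe sets, and the 10 most extreme as the base of a group, 147 genes in all. Further list members are named to show the others past 1.5-fold, such as CHI, LCR69 and EXO, or members near the reference, and these were chosen after their values were seen. The 9 alternatives varied the floor (10 or 50), a pseudocount of 25, the scaling (quantile, loess with a span of 0.4, median), the probe sets and the reference. The ratio step was tested on simulated data. Python 3.11.15, pandas 2.3.3, numpy 2.4.6, statsmodels 0.14.6 and matplotlib 3.10.9 were used.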

Additional observations from a re-analysis of the deposited data

Results flagged for a closer look

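These are the single-gene probe sets at or above 25 on all 3 arrays compared in which the nitrate array was at least 1.5-fold from the full-nutrient array in one direction and the phosphate or the potassium array at least 1.5-fold from it in the other. BGLU28, below 25 on the nitrate array, is therefore not among them. The differences were not tested, since each condition had 1 array, and the values below are log2 ratios of the nitrate array over the other depleted array.

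Against phosphate depletion, the nitrate array was lower for CHI (-1.48), PRX71 (-2.17), AT4G32480 (-3.12), AT4G01870 (-2.20), AT2G30540 (-1.75), AT4G00295 (-1.54) and AT1G78830 (-1.26). It was higher for GAMMA-VPE (1.31), AT2G05540 (2.12), AT1G27020 (1.75), AT1G11700 (1.61), AT1G70420 (1.59) and AT4G16830 (1.37). AT4G32480 had 94.5 with full nutrients, 31 without nitrate and 268.9 without phosphate, and AT1G78830, the brightest of the lower ones, had 1534.9, 976.1 and 2333.7 in that order.

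Against potassium depletion, the nitrate array was lower for AT4G16260 (-3.40), AT1G75280 (-2.50), CHI (-2.34), AT4G01870 (-2.27), PRX71 (-2.25), AT4G37520 (-2.06), UGT87A2 (-1.82) and AT1G65500 (-1.71). It was higher for EXPA8 (2.09), AT2G29310 (1.90), CER26 (1.88), AT4G32460 (1.64), AT2G46550 (1.36), AT2G38330 (1.35), AT4G18970 (1.33) and AT2G37480 (1.32). CHI, PRX71 and AT4G01870 are in both comparisons, which share the nitrate array. For AT2G37480 this holds for 1 of its 2 probe sets, since the other was above the reference on the potassium array too (97.8 and 153.7).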

How the results depend on the processing

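No paired analysis was possible because there was 1 array per group. The counts of probe sets moved with the treatment of low signals and with the reference. With a floor of 10, 101 passed 2-fold upward and 98 downward. At 2-fold there were also 17 higher ones with a floor of 50, 19 and 29 with the pseudocount, 23 and 27 among probe sets with the plain ending, and 55 and 135 against the mean of the other 3 arrays. At 1.5-fold, the floor of 10 gave 472 and 386 and the floor of 50 gave 155 and 121, and 114 were lower with the plain ending and 365 against the other 3 arrays. That last reference moved the list medians to -1.31 for chitinases, 0.20 for glutathione S-transferases, 0.30 for photosynthesis, -0.16 for growth hormones, 0.33 for leaf markers and 0.44 for tetrapyrroles. With a floor of 50 the hormone and lectin medians were 0. Against the mean of the other 3 arrays, the named genes past 1.5-fold that changed direction were AT2G38380 (-0.090), AT3G15356 (0.36), CYTC-2 (-0.29) and OSM34 (-1.13). Some named genes within 1.5-fold changed sign too, among them ALDH7B4 (0.27 to -0.40) and GSTU18 (-0.27 to 0.20). Of the 72 named genes past 1.5-fold, 70 stayed past it under each of quantile, loess and median scaling, 72 with a floor of 10, 56 with the pseudocount, 50 with a floor of 50 and 47 against the other 3 arrays. The cause of these shifts was not tested beyond what each setting changes by construction.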
